A study of Mus musculus with 6 samples.

Results

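Fos, Fosb, Fosl1, Fosl2, Jun, Junb, Jund, Atf3, Egr1 and Ier2 are transcription factor genes of the AP-1 complex and of the immediate early response. They were taken by symbol from a list of names, which was drawn up with earlier results of these data known. All 10 were found among the 17854 genes of the table, and all 10 passed the filter on low counts that left 14289 genes for testing.

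AP-1 is a dimer of basic leucine zipper proteins. Fos family proteins (Fos, Fosb, Fosl1, Fosl2) bind DNA mainly as pairs with a Jun family protein (Jun, Junb, Jund), whereas Jun proteins can also pair with each other. Immediate early genes are transcribed within minutes of a stimulus without new protein synthesis, mostly through MAP kinases that act on SRF with its partners and on CREB, and their transcripts are short-lived. In the skeleton, AP-1 factors are known for their roles in chondrocyte and osteoblast differentiation, in osteoclast formation and in the expression of matrix-degrading enzymes. Enzymatic release of cells from tissue is itself known to induce many of these genes.

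The study measured bulk RNA-seq of sorted Tomato+ cells from mouse knee cartilage, a fluorescent label that Prrx1-Cre; R26 tdTomato mice carry in limb mesenchyme and all its descendants, since the Prrx1 regulatory sequence drives Cre. The MSC-derived group (3 male mice, C57BL/6) held Tomato+ cells from the repaired cartilage of mice with knee osteoarthritis. These mice had their anterior cruciate ligament cut at 8 weeks of age. They received a single injection of Prrx1-lineage mesenchymal stromal cells (MSCs) from inguinal white fat 4 weeks later. The host cells carried no Tomato transgene. The endogenous group (3 male mice, C57BL/6) held the animals' own articular Tomato+ cells, taken from Prrx1-Cre; R26 tdTomato mice matched for age and sex, for which no surgery or injection was described. The age at harvest was not given in the sources used here, and surgery, host, cell origin and injection all differed between the groups together and cannot be told apart. In all samples the cartilage was digested with collagenase and the Tomato+ cells were sorted by flow cytometry.

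Libraries held between 22060628 and 24881796 expected counts. Endogenous replicate 1 stood apart from the other endogenous libraries: 3459 genes were at 0 in it, against 1338 and 1395 in replicates 2 and 3, and its counts differed from theirs by a chi-square of 58.7 and 55.4 per gene, while replicates 2 and 3 differed by 5.43 and MSC-derived pairs by 3.88 to 4.30. All libraries were labelled chondrocyte. The 12 chondrocyte markers summed to 23032 to 24921 TPM (a level scaled by gene length that sums to the same total in each library) in the endogenous libraries, but to 444 to 456 TPM in the MSC-derived ones, where Col2a1, the main cartilage collagen, stood at 121 ± 4.32 TPM against 12968 ± 944 TPM (SD, n = 3). Values without endogenous replicate 1 are given beside the results that it moved most.

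Sequence before the start site was examined for the members found in a RefSeq table of promoters of the mouse build GRCm38.p6. It held 7 of the 10 members (Fos, Fosb, Fosl2, Jun, Junb, Jund, Atf3); Egr1, Fosl1 and Ier2 were not matched. The 250 bases before the start site of Fos, Fosb and Jun are printed because these genes carry the classic elements of the family: the capitals mark the CRE core TGACG that CREB family proteins bind, the TATA element TATAAA, and the site TGACATCA that Jun and Atf2 dimers bind. Fos lies at chr12:85473640-85473889 on the plus strand, Fosb at chr7:19310046-19310295 on the minus strand and Jun at chr4:95052223-95052472 on the minus strand, and each sequence reads 5′ to 3′ along the gene and ends at the base before its start site.
Fos: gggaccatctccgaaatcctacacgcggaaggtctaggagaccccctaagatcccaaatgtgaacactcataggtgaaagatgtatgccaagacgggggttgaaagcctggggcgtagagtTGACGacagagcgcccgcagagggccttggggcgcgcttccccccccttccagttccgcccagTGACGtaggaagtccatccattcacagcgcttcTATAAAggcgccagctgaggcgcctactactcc
Fosb: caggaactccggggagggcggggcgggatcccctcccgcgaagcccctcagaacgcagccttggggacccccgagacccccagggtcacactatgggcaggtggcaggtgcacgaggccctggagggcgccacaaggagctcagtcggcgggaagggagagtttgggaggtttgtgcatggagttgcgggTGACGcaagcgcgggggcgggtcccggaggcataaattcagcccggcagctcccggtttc
Jun: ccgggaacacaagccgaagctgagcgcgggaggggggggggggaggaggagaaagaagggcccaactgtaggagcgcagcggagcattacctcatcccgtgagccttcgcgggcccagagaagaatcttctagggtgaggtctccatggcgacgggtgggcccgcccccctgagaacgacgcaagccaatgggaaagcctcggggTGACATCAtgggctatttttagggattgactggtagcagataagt

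Motifs were sought on both strands in the same 250 bases of 32851 windows of the table. TGACG was found in 4 of the 7 members (Fos, Fosb, Junb and Atf3) and in 17.8% of all windows. In Fos it lay from -129 to -125 and from -66 to -62, and in Fosb from -60 to -56, counted from the start site. The full CRE TGACGTCA, which contains TGACG, was in 1.55% of windows and in 0 of the 7 members. TGACATCA was in 2.93% of windows and, among the members, in Jun alone, from -45 to -38. TATAAA was in 12.4% of windows and, among the members, in Fos alone, from -33 to -28. The AP-1 site TGANTCA (6.75% of windows) and the CArG box of SRF (1.47%) were in 0 of the 7 windows, and the GC box GGGCGG was in 5 of the 7 and in 32.7% of all windows. A match here is a stretch of letters and not a measured binding site. Bases further upstream were not searched, so a count of 0 covers these 250 bases only. It does not show that a gene lacks the site.

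Transcripts of all 10 genes were lower in the MSC-derived cells than in the endogenous cells. With the quasi-likelihood test of edgeR and Benjamini-Hochberg adjustment over all genes tested, 10 of 10 fell and 0 rose, beside 30.3% of all genes tested that fell (4333 genes) and 31.3% that rose (4468 genes). In 10 of 10 the groups did not overlap in CPM (counts scaled to library size with TMM factors), which held in this direction for 34.1% of all genes. A decrease of 1 or more on the log2 scale was found in 5 of the 10 (Egr1, Fosb, Fos, Ier2 and Fosl1) and in 21.9% of all genes. This count was 6 without endogenous replicate 1, where Junb joined (24.8% of all genes), and 8 with limma on log2(TPM + 1), where Junb, Atf3 and Fosl2 joined (23.8% of all genes). The median log2 fold change of the members was -1.05, against 0.05 for all genes. Fewer cells of a type and less RNA per cell cannot be told apart in such bulk samples.

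**Figure D1:**
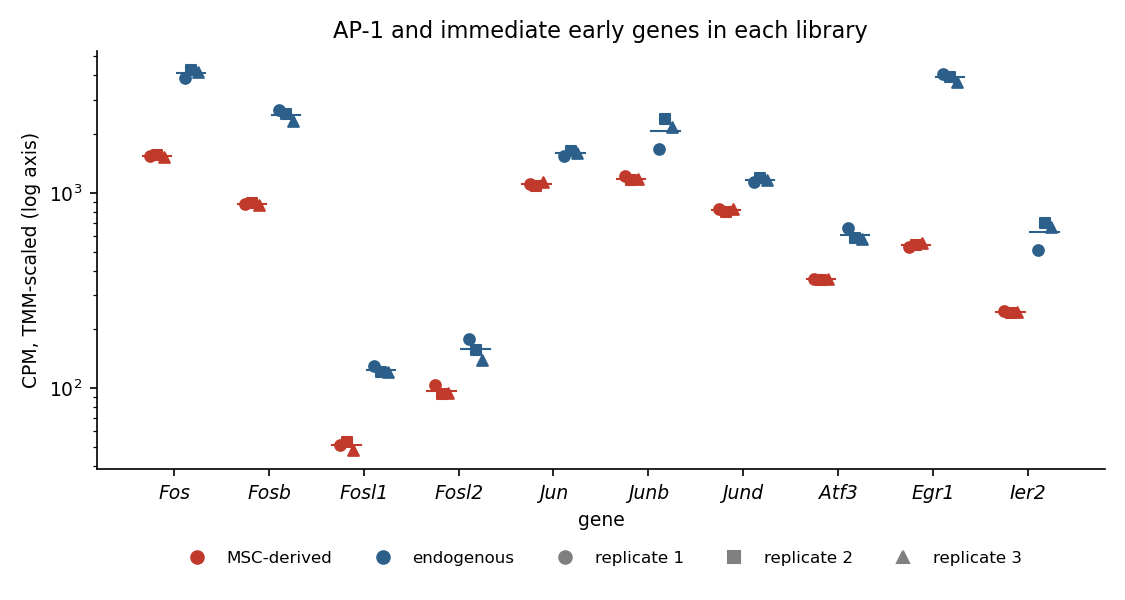
TMM-scaled CPM of each gene (log axis) in each of the 6 libraries, red for MSC-derived and blue for endogenous, with the marker shape giving the replicate and a line at the group mean. Every endogenous point lies above every MSC-derived point of the same gene, with the widest gap for Egr1 (529 to 551 against 3710 to 4088) and the narrowest for Fosl2, whose lowest endogenous library was 1.34 times its highest MSC-derived library.

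Fos, the founding member of its family and the usual partner of Jun in induced AP-1, stood at 1545, 1568 and 1534 CPM in the MSC-derived libraries and at 3858, 4273 and 4173 CPM in the endogenous ones. It was thus 2.65-fold higher in endogenous cells (log2 fold change -1.41, SE 0.0594, adjusted p = 8.87e-07). Per length, Fos was the most abundant of the 10 in both groups, at 1034 ± 18.1 TPM and 3715 ± 99.0 TPM (SD, n = 3). By TPM it ranked between place 28 and 32 among all genes in the endogenous libraries and between place 104 and 109 in the MSC-derived ones.

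Fosb, which resembles Fos and is induced with it, stood at 873, 889 and 862 CPM in the MSC-derived libraries and at 2659, 2548 and 2324 CPM in the endogenous ones. Its decrease was the largest of the family (log2 fold change -1.52, SE 0.0671, adjusted p = 1.09e-06). Fosl1 and Fosl2 encode Fra-1 and Fra-2, which lack the strong activation domain of Fos and Fosb. Fosl1 stood at 51.2, 53.0 and 48.1 CPM against 130, 121 and 121 CPM in endogenous cells (log2 fold change -1.29, SE 0.0815, adjusted p = 6.95e-06). Fosl2, known for roles in osteoblasts and osteoclasts, had 104, 92.9 and 94.2 CPM against 178, 157 and 140 CPM, the smallest decrease of its family (-0.71, SE 0.108, adjusted p = 0.000881). Fosl2 had the widest spread of the family in both groups, with a coefficient of variation of 6.22% in the MSC-derived and 12.3% in the endogenous libraries.

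Log2 fold changes of the Jun family lay between -0.82 and -0.51, against -1.52 to -0.71 in the Fos family. Jun, the founding member of its family and a strong activator, stood at 1115, 1090 and 1142 CPM in the MSC-derived libraries and at 1540, 1644 and 1609 CPM in the endogenous ones (log2 fold change -0.52, SE 0.0563, adjusted p = 0.000139). Jund, the family member that resting cells also express, moved nearly as Jun did, with 824, 798 and 831 CPM against 1132, 1191 and 1160 CPM (-0.51, SE 0.0556, adjusted p = 0.000147). Junb, a weaker activator that can oppose Jun, had 1214, 1165 and 1171 CPM against 1682, 2378 and 2186 CPM. Its log2 fold change was -0.82 (SE 0.122, adjusted p = 0.00082), and -1.002 without endogenous replicate 1, in which Junb was at 0.737 of the mean of the other endogenous libraries.

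Atf3, a stress-induced factor that pairs with Jun proteins, stood at 361, 358 and 363 CPM in the MSC-derived libraries and at 664, 589 and 579 CPM in the endogenous ones (log2 fold change -0.76, SE 0.0722, adjusted p = 6.56e-05). The MSC-derived libraries differed least for this gene, with a coefficient of variation of 0.648%.

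Egr1, a zinc finger factor and a classic target of SRF, changed most. It stood at 529, 539 and 551 CPM in the MSC-derived libraries and at 4088, 3926 and 3710 CPM in the endogenous ones, a 7.25-fold difference (log2 fold change -2.86, SE 0.0625, adjusted p = 6.88e-08). On the TPM scale it was at 236, 241 and 243 against 2706, 2258 and 2152. Ier2, a small nuclear protein gene of the immediate early response, had 247, 242 and 246 CPM against 510, 704 and 669 CPM (-1.36, SE 0.122, adjusted p = 4.79e-05). Without endogenous replicate 1, where Ier2 was at 0.742 of the mean of the other endogenous libraries, its log2 fold change was -1.54.

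Endogenous replicate 1 was not uniformly high or low for these genes. It was the highest endogenous library for Fosb, Fosl1, Fosl2, Atf3 and Egr1, and the lowest for Fos, Jun, Junb, Jund and Ier2. All 10 genes were called lower in the fit without it, where 38.6% of all genes were, as in each of the 19 fits run, in which between 22.1% and 41.7% of all genes were called lower (27.4% with the replicate number as a block). Leaving out a library moved Fos between -1.50 and -1.39, Egr1 between -2.89 and -2.84 and Jun between -0.60 and -0.49 on the log2 scale, and the highest adjusted p was 0.00802, for Fosl2.

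**Figure D2:**
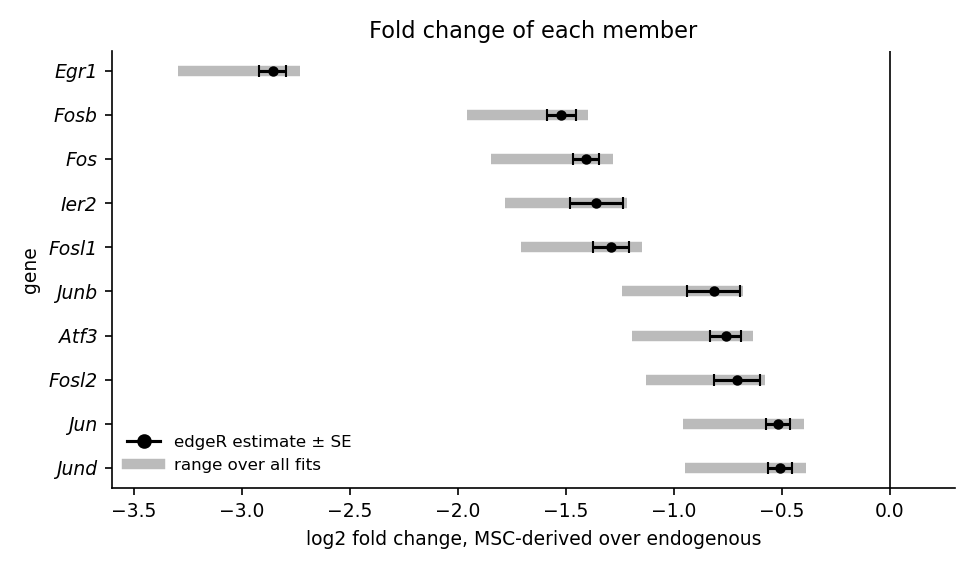
Log2 fold change of each gene (MSC-derived over endogenous, horizontal axis), with black points and bars for the edgeR estimate ± SE and grey bars for the range over all 19 fits, which include other scalings, other tests, TPM and each library left out. All bars lie below 0, from Egr1 at -2.86 to Jund at -0.51, and the lower end of each grey bar comes from TPM and the upper end from FPKM with a pseudocount of 1.

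The size of the decrease differed between scales. FPKM values (counts scaled by gene length and library size) summed to 808701 to 813572 in the MSC-derived libraries and to 504768 to 573603 in the endogenous ones, so TPM, which divides by that sum, placed the MSC-derived libraries lower. With limma on log2(TPM + 1) the median of all genes moved to -0.28 and 41.7% of genes were called lower against 21.9% higher, so that 65.6% of calls were decreases. The share of decreases was 42.0% with limma on log2(FPKM + 1), the same test on another scale, and 49.2% with edgeR on TMM-scaled counts. Fos was at -1.84, Egr1 at -3.29 and Jund at -0.95 with limma on log2(TPM + 1). Relative to the median of all genes in the same fit, the decreases were steadier: from -1.56 to -1.42 for Fos, from -3.01 to -2.87 for Egr1, from -0.68 to -0.53 for Jun and from -0.67 to -0.52 for Jund over all 19 fits.

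The order of the levels per length differed between the groups. In the endogenous libraries Fos (3715 ± 99.0 TPM) was followed by Egr1 (2372 ± 294) and Junb (2178 ± 227), whose libraries overlapped, then by Fosb (1252 ± 175), Jun (929 ± 44.9), Ier2 (813 ± 78.2) and Jund (753 ± 44.1), of which Ier2 and Jund overlapped, and by Atf3 (598 ± 94.2), Fosl1 (143 ± 17.1) and Fosl2 (47.3 ± 9.79). In the MSC-derived libraries the order was Fos (1034 ± 18.1 TPM), Junb (918 ± 24.3), Jun (477 ± 8.07), Jund (390 ± 6.62), Fosb (320 ± 6.94), Atf3 (258 ± 1.08), Egr1 (240 ± 3.46), Ier2 (235 ± 2.91), Fosl1 (42.9 ± 2.43) and Fosl2 (20.8 ± 1.43), with only the neighbours Egr1 and Ier2 overlapping. By mean TPM, Egr1 thus held place 2 among the 10 in endogenous cells and place 7 in MSC-derived cells. Its place above Junb came from endogenous replicate 1 (2706 against 1937 TPM). In endogenous replicates 2 and 3 Junb was higher, at 2387 and 2211 TPM against 2258 and 2152 TPM for Egr1. The 10 genes together made up 1.34%, 1.28% and 1.23% of all TPM in the endogenous libraries and 0.398%, 0.393% and 0.390% in the MSC-derived ones.

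Within each family the shares of the genes differed by at most 4.90 percentage points between the groups, and by at most 7.04 without endogenous replicate 1, both for Junb. Of the summed TPM of the Fos family, Fos took 72.9% ± 0.174 in MSC-derived and 72.1% ± 2.23 in endogenous cells (SD, n = 3), a difference of 0.825 percentage points (exact two-sided permutation test, p = 0.7, adjusted over 7 shares p = 0.7), which turned to -0.417 without endogenous replicate 1. Fosb took 22.6% ± 0.0556 and 24.2% ± 1.94, a difference of -1.64 points that was -0.571 without endogenous replicate 1, and Fosl1 3.03% ± 0.113 and 2.77% ± 0.178. Fosl2 took 1.47% ± 0.0984 against 0.911% ± 0.133, with no overlap between the groups. Of the Jun family, Junb took 51.4% ± 0.698 in MSC-derived and 56.3% ± 3.78 in endogenous cells, Jun 26.7% ± 0.473 and 24.1% ± 1.99, and Jund 21.8% ± 0.229 and 19.6% ± 1.80. The exact p was 0.1 for Fosl2, Junb and Jund (each 0.233 after adjustment), which is the smallest that 3 libraries against 3 allow, so that no share could pass the threshold. Endogenous replicate 1 had a Junb share of 52.0%, close to the MSC-derived libraries, while replicates 2 and 3 had 59.2% and 57.7%.

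**Figure D3:**
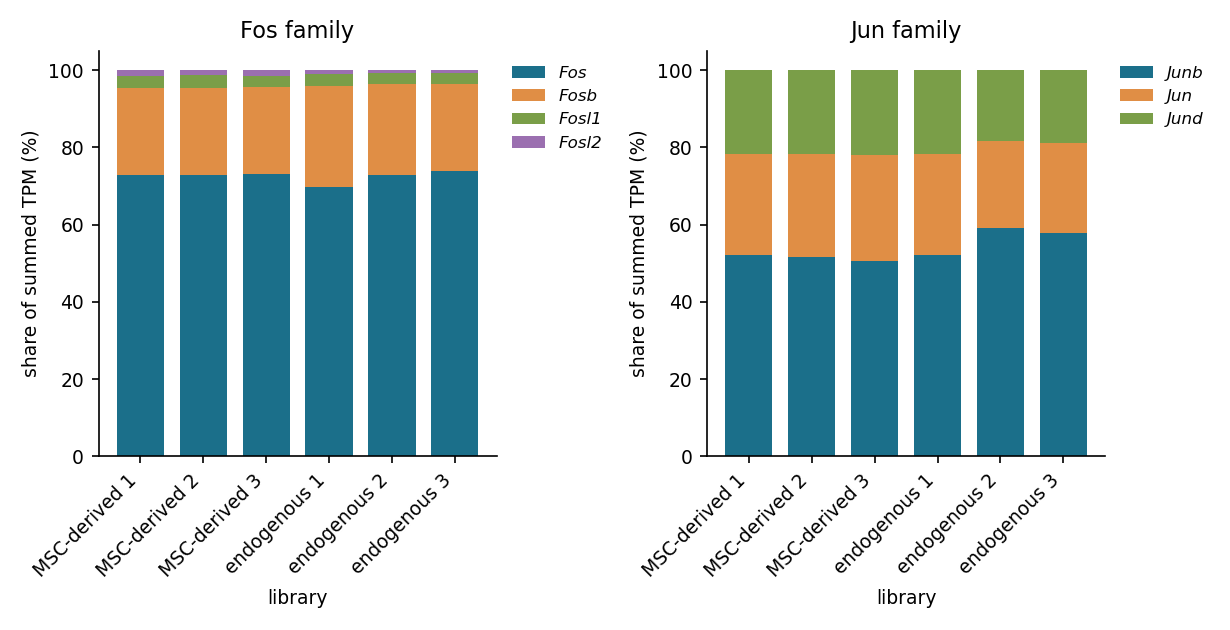
Share of each gene in the summed TPM of its family (percent, stacked to 100) in each library, with the Fos family on the left and the Jun family on the right. Fos and Junb take the largest shares in all 6 libraries, and the Junb part of endogenous replicate 1 (52.0%) is as low as in the MSC-derived libraries.

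The balance between the families also differed between the groups. Summed over each family, the Fos genes stood at 1422, 1443 and 1388 TPM in the MSC-derived libraries and at 5493, 5068 and 4913 TPM in the endogenous ones, whereas the Jun genes stood at 1819, 1759 and 1779 TPM and at 3721, 4031 and 3830 TPM. The ratio of Fos family to Jun family was therefore 0.782, 0.820 and 0.780 in the MSC-derived libraries and 1.48, 1.26 and 1.28 in the endogenous ones (0.794 ± 0.0227 against 1.34 ± 0.12, SD, n = 3). Jun family transcripts outnumbered Fos family transcripts in each MSC-derived library, and the reverse held in each endogenous library. The exact permutation test gave p = 0.1, the smallest possible, and this ratio was computed after the values of the genes had been seen.

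Among the genes with a log2 CPM of at least 5 (5343 compared), those whose profile over the 6 libraries was most like that of Fos, by the root mean square difference of centred log2 CPM, were Runx3 (0.0297), P4hb (0.0316), Sesn2 (0.0316), Phf13 (0.0397) and Col4a2 (0.0497). Fosl1, Ier2 and Fosb followed at places 52, 62 and 65. For Jun the closest gene was Jund (0.0122), followed by Htra4 (0.0186), Acadsb (0.0313), Rpn1 (0.0315) and Atraid (0.0316). This measure is a description over 6 libraries that fall in 2 groups, so that genes with a like fold change lie close together.

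Other immediate early genes fell as well. Of 33 in the list, 32 were tested (Npas4 was not), of which 25 fell, 5 rose and 2 were not called, with a median log2 fold change of -1.42. Over all genes tested 30.3% fell and 31.3% rose. Ccn1 and Ccn2, matricellular proteins that SRF and YAP are known to control, stood at 60.1 ± 2.56 and 176 ± 11.7 TPM in MSC-derived cells against 1998 ± 47.0 and 2246 ± 50.3 TPM (log2 fold changes -4.62 and -3.23, SE 0.0795 and 0.0860). Arc, best known from neurons, was at 2.85 ± 0.224 TPM against 105 ± 12.3 TPM (-4.77, SE 0.175). The relatives of Egr1 also fell, with log2 fold changes of -1.88 for Egr2 and -2.26 for Egr3, as did the nuclear receptors Nr4a1 (-0.93), Nr4a2 (-2.65) and Nr4a3 (-1.48) and the growth regulator Myc (-2.36). These 6 genes were picked after their values were seen.

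The increases in that list were Plk3, a stress-responsive kinase (224 ± 2.51 against 43.5 ± 5.36 TPM, log2 fold change 2.81, SE 0.144), Cebpb, a factor of macrophage and fat cell differentiation (0.80, SE 0.0893), the kinase Pim1 (0.80, SE 0.0724), and Rhob and Mcl1 (0.62 each). Klf2 (-0.17, adjusted p = 0.0593) and Klf6 (-0.14, adjusted p = 0.139) were not called by edgeR. The summed TPM of the list was 4276 to 4394 in MSC-derived and 13883 to 14575 in endogenous libraries.

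The feedback regulators, which are induced with the immediate early genes and shut them off, were split. Of 15 tested, 4 rose, 8 fell and 3 were not called, with a median log2 fold change of -0.17. Among all genes tested 31.3% rose and 30.3% fell. Socs3, the inhibitor of cytokine signalling, fell from 662 ± 19.99 to 81.3 ± 3.01 TPM (-2.59, SE 0.0951), and Spry4 and Spry2, inhibitors of growth factor signalling, fell by 2.55 and 2.41 on the log2 scale. Tnfaip3, which restrains NF-kB, rose (2.03, SE 0.0729), as did the MAP kinase phosphatases Dusp2 (1.56, SE 0.209) and Dusp6 (1.26, SE 0.108). Dusp1, a MAP kinase phosphatase that is itself an immediate early gene, was not called (0.07, SE 0.079, adjusted p = 0.48), and its sign turned with the scaling, from -0.37 to 0.19. Zfp36, which degrades short-lived mRNAs, was at 1105 ± 8.40 against 1693 ± 168 TPM (-0.17, adjusted p = 0.0267), but was called lower in only 10 of the 19 fits, with log2 fold changes from -0.61 to -0.05.

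Of the 18 AP-1 partners and relatives, 8 rose, 5 fell and 5 were not called, with a median of 0.21; over all genes tested 31.3% rose and 30.3% fell, shares near those of this list in the direction of decrease. Nfe2, a factor of the erythroid and megakaryocytic lineages, rose (85.8 ± 2.15 against 20.7 ± 0.195 TPM, log2 fold change 2.56, SE 0.0974), as did Maf, a large Maf factor (2.39, SE 0.17). The small Maf genes Mafk (-1.41, SE 0.0916) and Maff (-1.01, SE 0.0807) fell, as did Atf4, the effector of the integrated stress response (-1.22, SE 0.0714). The 30 upstream kinases and factors were split too, with 11 higher, 6 lower and 13 not called, and a median of 0.15, to be read against the same shares of all genes. Rps6ka1, the kinase RSK1 (3.60, SE 0.263), and the p38 kinases Mapk13 (3.20, SE 0.254) and Mapk14 (1.97, SE 0.0898) rose. Srf (-0.91, SE 0.137), its ternary complex partner Elk3 (-1.26, SE 0.113) and the JNK gene Mapk8 (-1.05, SE 0.215) fell. With limma on log2(TPM + 1) the split of this list turned to 5 higher and 10 lower, where 21.9% of all genes were higher and 41.7% lower. Without endogenous replicate 1 there were 11 lower, where 38.6% of all genes were lower. The calls over all genes thus shifted in the same direction.

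Among 24 genes known as AP-1 targets, 18 fell, 5 rose and 1 was not called, with a median of -1.66. The shares over all genes tested were 30.3% lower and 31.3% higher. Mmp13, the collagenase of cartilage, stood at 39.5, 36.3 and 37.4 TPM in the MSC-derived libraries and at 710, 463 and 489 TPM in the endogenous ones (log2 fold change -3.42, SE 0.127). The cytokines Il11 (1.39 ± 0.356 against 28.9 ± 6.39 TPM, -4.02, SE 0.213) and Lif (0.983 ± 0.0833 against 19.1 ± 3.38 TPM, -3.83, SE 0.149) fell as well. Mmp10 had 0 counts in all 3 MSC-derived libraries; measured from a floor of 3 counts per library its level there was at least 24.8-fold lower, and with Mmp10 at that bound the median of the list was also -1.66. The increases were led by Hmox1, the heme-degrading oxygenase (4874 ± 179 against 160 ± 18.4 TPM, 5.36, SE 0.153), with Mmp9 (2.77, SE 0.0783) and Acp5 (2.12, SE 0.296). The osteoclast marker list also holds Mmp9 and Acp5, together with Nfatc1, an AP-1 target of this list that fell. Of the 7 osteoclast markers tested, 4 rose, 1 fell and 2 were not called.

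The heat shock genes that tissue dissociation is known to induce moved with the members: of 13, 11 fell, 1 rose and 1 was not called, with a median of -0.86. Of all genes tested, 30.3% fell and 31.3% rose. Hspb1 (-2.37, SE 0.127), Dnajb1 (-2.19, SE 0.0844) and Hspb8 (-1.55, SE 0.114) fell most among those past the level set for naming (average log2 CPM of 3). The summed level of all 13 genes was 2615 to 2680 TPM in MSC-derived and 4811 to 5661 TPM in endogenous libraries. Hspe1 was the gene called higher (0.34, SE 0.118, adjusted p = 0.0393), and its sign turned with limma on log2(TPM + 1), to -0.09. The part of dissociation in the levels of the members was not tested.

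**Figure D4:**
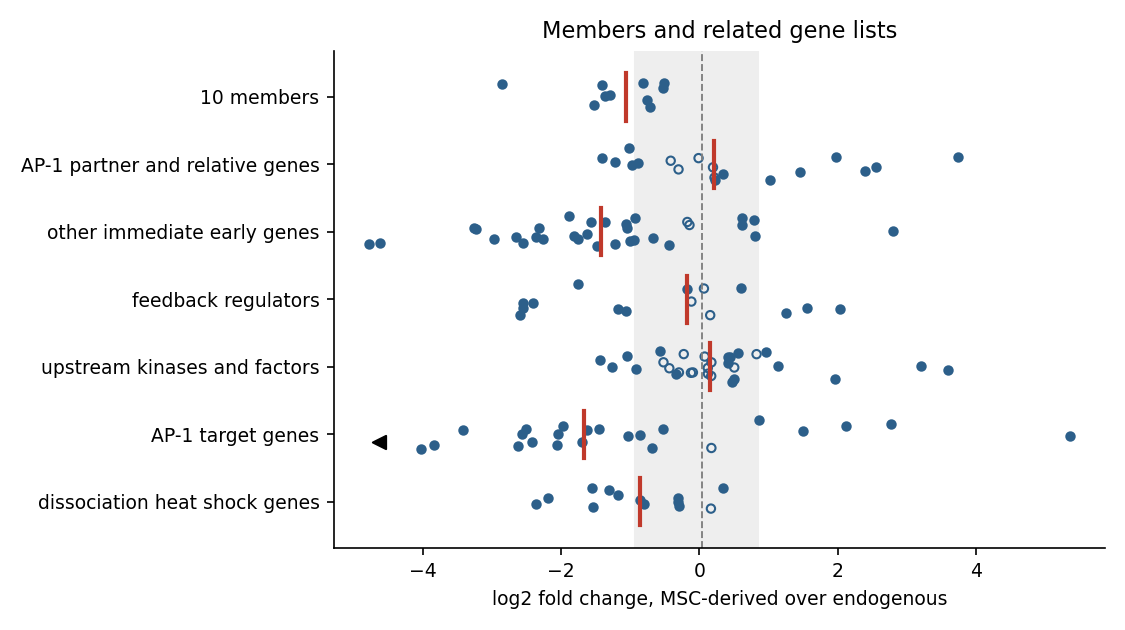
Log2 fold change (MSC-derived over endogenous, horizontal axis) of each tested gene in the 10 members and in the related lists, filled where the adjusted p was 0.05 or less and open otherwise, with a red bar at each median, a grey band for the middle 50% of all genes and a dashed line at the median of all genes. The triangle is Mmp10, drawn at its bound of -4.63. The medians of the members (-1.05), the other immediate early genes (-1.42) and the AP-1 targets (-1.66) lie left of the grey band. Those of the partners (0.21), the feedback regulators (-0.17) and the upstream genes (0.15) lie inside it. The median of the dissociation heat shock genes is -0.86.

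Markers of several other cell types moved with the groups. The counts below stand beside 31.3% of all genes tested that rose and 30.3% that fell. All 10 common leukocyte markers rose (summed 5388 to 5397 TPM in MSC-derived against 458 to 515 TPM in endogenous libraries), as did all 10 macrophage markers (14331 to 14668 against 109 to 179 TPM), all 10 neutrophil markers (147109 to 155802 against 8180 to 11527 TPM) and the 9 erythroid markers in the table (63673 to 65604 against 14436 to 20055 TPM). The macrophage scavenger receptor Cd163 stood at 87.6 ± 2.46 TPM against 0.29 ± 0.121 TPM, and no leukocyte, macrophage, neutrophil or erythroid marker was at 0 in a whole group. All 12 chondrocyte markers fell, and all 10 osteoblast markers fell (730 to 761 against 60771 to 83938 TPM). Of the osteoclast markers tested 4 rose and 1 fell (531 to 540 against 447 to 495 TPM). Of the endothelial ones 6 rose and 1 fell, but their sums overlapped (56.0 to 62.5 against 55.4 to 65.3 TPM). Of the adipocyte ones 4 rose and 4 fell (693 to 726 against 402 to 423 TPM). Of the skeletal muscle ones 0 rose and 2 fell (16.6 to 19.7 against 68.2 to 73.4 TPM). Calcr, Lep and Myh1 were at 0 in all MSC-derived libraries and Myh4 in all endogenous ones. None of these genes was above 3 counts in every library of the other group, so no difference between the groups is read from them. The part of these cell types in the levels of the 10 members was not tested.

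**Figure D5:**
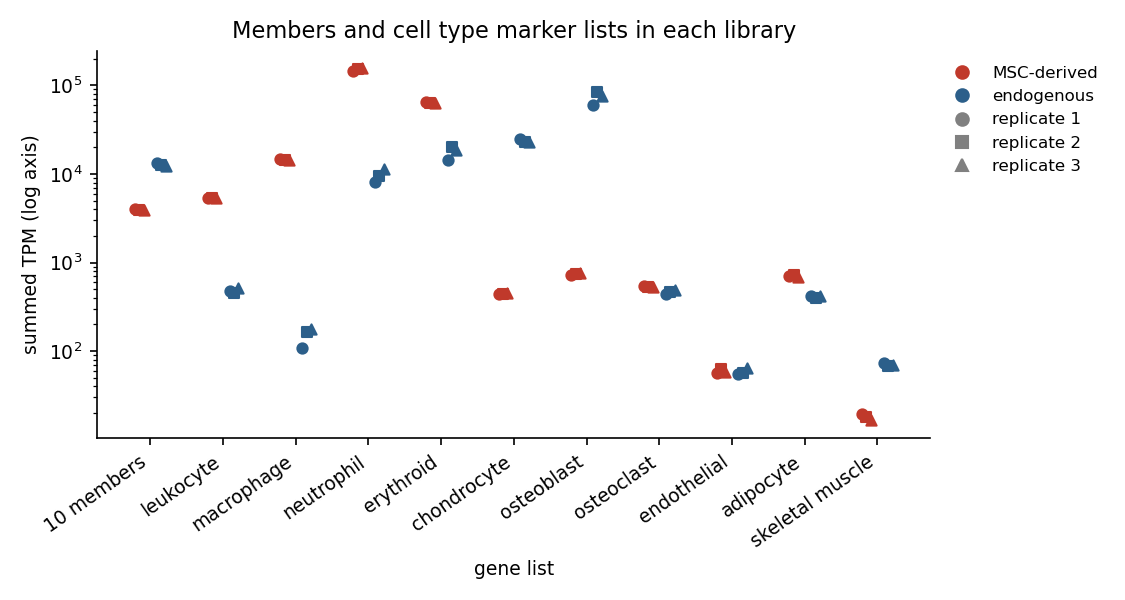
Summed TPM (log axis) of the 10 members and of each list of cell type markers in each library, red for MSC-derived and blue for endogenous, with the marker shape giving the replicate. The members sum to 3902 to 3976 TPM in MSC-derived and 12274 to 13352 TPM in endogenous libraries, a smaller gap than those of the macrophage, neutrophil, chondrocyte and osteoblast lists.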

How the data were processed

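Bulk RNA-seq of sorted Tomato+ cells was compared between 3 MSC-derived and 3 endogenous libraries. The submitters' processing notes name Bowtie2 2.2.5, RSEM 1.2.12 and the build mm9. The paper's methods give other versions of Bowtie2 and RSEM, and which were used for the deposited values was not settled. No coordinates of the build mm9 were used. The authors filtered and aligned the reads and deposited RSEM expected counts per gene without normalization. The authors also deposited FPKM (scaled by length and library size) and TPM (scaled to a fixed sum). A further deposited signal column (each library's rounded-up counts multiplied by a factor of its own) served for checking only. The 24 columns used were mapped by name, and 8 columns of group averages were not used.

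Expected counts were rounded, which changed 20.6% of values, and tested with edgeR 4.0.16 in R 4.3.3 (filterByExpr, TMM, glmQLFit, glmQLFTest, no block), with Benjamini-Hochberg adjustment over 14289 genes and a threshold of 0.05. The SE is the log2 fold change divided by the square root of F. "Rose", "fell" and "called" refer to this test. Shares and ratios were compared by exact two-sided permutation over libraries. The methods give 3 mice per group without tying libraries to mice, so p-values measure only the spread between these libraries, which may be technical. A floor of 3 counts equalled 0.1206 to 0.136 CPM, for counting error only. Depth was similar in all libraries, and single members had far more counts than the floor.

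The members and the gene lists were chosen with earlier results of these data known. Beside the members, up to 3 genes called higher and 3 called lower were named in each related list by the size of the change, from an average log2 CPM of 3 upwards, and 5 similar profiles for Fos and Jun; marker lists were given by counts and sums, and other genes named, Col2a1 and Cd163 among them, were chosen after their values were seen. A gene that the rule names is not reported here. Alternatives were DESeq2 1.42.0, other scalings and filters, limma 3.58.1 on log2(FPKM + 1), log2(FPKM + 0.1) and, added after seeing the data, log2(TPM + 1), a replicate block, and each library left out. Figures were drawn with matplotlib 3.10.9.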

Additional observations from a re-analysis of the deposited data

How the results depend on the processing

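All 10 members were called lower, and none higher, under each alternative run, with log2 fold changes between -3.29 (Egr1, TPM) and -0.39 (Jund, log2(FPKM + 1)). Among all recomputed values, 478 kept their direction and their side of the threshold or stayed within the spread, 17 moved and 1 reversed. With limma on log2(TPM + 1), 8 AP-1 partners were called lower in place of 5, and 5 upstream genes higher and 10 lower in place of 11 and 6. In that fit 41.7% of all genes were called lower and 21.9% higher, in place of 30.3% and 31.3%. Leaving out each library gave 4 to 11 upstream genes called lower, the highest without endogenous replicate 1. Of all genes, 38.6% were called lower in that fit and 25.5% to 29.4% with any other library left out. The single heat shock gene called higher became 0 with RLE factors, upper quartile factors, the 50 genes with the most counts left out, the replicate block and TPM, became 2 with library size alone and with limma on log2(FPKM + 1), log2(FPKM + 0.1) and log2(FPKM + 1) without a filter, and was 0 to 1 leaving out each library. The difference in the share of Fos in its family, 0.825 percentage points, ranged from -0.417 without endogenous replicate 1 (exact permutation p = 0.8, 3 libraries against 2) to 1.73 without endogenous replicate 3. The cause of these shifts was not tested. The ratio of the Fos to the Jun family in MSC-derived over endogenous cells was 0.593, and 0.576 to 0.625 leaving out each library. Same-numbered libraries came from different mice, and their deviations from the group means correlated by 0.00221 to 0.0178 over genes. These values showed no pairing by number, but with 3 libraries per group they cannot exclude a batch shared by number. The replicate block gave 4103 genes higher and 3920 lower, with all 10 members still lower (Fos adjusted p = 5.13e-05, edgeR). Library size alone, FPKM and TPM moved the median of all genes to 0.16, 0.13 to 0.19 and -0.28. Depth limited none of the members, whose lowest value was 48.1 CPM.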
